A study of Arabidopsis thaliana with 8 samples.

Results

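The brassinosteroid biosynthesis enzymes of Arabidopsis thaliana were followed through 8 RNA-seq libraries of whole seedlings. Members were the rows of the expression table whose gene number carries 1 of 10 locus tags, and all 10 were found among the 22951 genes listed. They are DWF4 (AT3G50660), CPD (AT5G05690), ROT3 (AT4G36380), CYP90D1 (AT3G13730), CYP85A1 (AT5G38970), CYP85A2 (AT3G30180), DET2 (AT2G38050), DWF1 (AT3G19820), DWF5 (AT1G50430) and DWF7 (AT3G02580).

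There were 3 libraries of bin2-1, 2 of MIR394A_OE and 3 of Col-0. The labels give Col-0 as the background of all 3 groups. bin2-1 is known as a dominant allele of the kinase gene BIN2 that leaves the kinase active when it should be switched off; zygosity was not stated. MIR394A_OE overexpresses the microRNA gene MIR394A; the promoter of the transgene and the number of independent lines were not given in the sources used here. All seedlings were 5 days old and light-grown, with a day of 16 h light and a night of 8 h at 22 °C, after 4 days at 4 °C. The labels do not tie replicates to separate sowings, so the spread between libraries, which sets the p-values, may be technical.

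Brassinosteroids are the steroid hormones that drive elongation of plant cells, and mutants that cannot make them are dwarfs. Their synthesis starts from campesterol, a membrane sterol whose final steps are carried out by DWF7, DWF5 and DWF1. The reductase DET2 and a set of cytochrome P450 enzymes then convert campesterol to castasterone and brassinolide. DWF4 hydroxylates the side chain and is regarded as rate-limiting. CPD, ROT3 and CYP90D1 carry out further oxidations, and CYP85A1 and CYP85A2 the last ones. When the hormone is perceived, BIN2 is switched off and the transcription factors BZR1 and BES1 become active. Among their actions they repress several of the P450 genes, a known negative feedback on synthesis.

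The values are FPKM, fragments per kilobase of transcript, adjusted for the number of fragments mapped in each library, so levels can be compared between genes. Depth was estimated from the steps between low values at 9.68 to 11.28 M reads per library. A gene of 1 kb with 3 reads would then have 0.266 to 0.310 FPKM, a floor that covers counting error only. The targeted gene of miR394, LCR, had 17.15 and 17.47 FPKM in MIR394A_OE and 19.62 to 23.86 FPKM in Col-0. The difference had the direction of the label but was far from passing (limma, unadjusted p = 0.273, adjusted p = 0.874). Libraries were apart on this side for 6.17% of all genes. LCR had 15.97 to 27.01 FPKM in bin2-1, a range that holds both MIR394A_OE values, so it does not settle the label. BIN2 had 91.81 to 110.86 FPKM in bin2-1 and 94.11 to 111.22 FPKM in Col-0, which checks nothing for a point mutation. On the first principal component of all genes tested, which held 43.1% of the variance, the bin2-1 libraries had scores of 30.9 to 38.6, while MIR394A_OE replicate 1 at -54.2 and Col-0 replicate 1 at -35.4 stood farthest on the other side. Summed shoot markers (5 genes) covered 20098 to 30597 FPKM in bin2-1, 25539 to 30032 FPKM in MIR394A_OE and 24068 to 29877 FPKM in Col-0. Summed root markers (7 genes) covered 75.95 to 90.69 FPKM in bin2-1, 61.59 to 70.11 FPKM in MIR394A_OE and 70.62 to 118.88 FPKM in Col-0. Both organs were thus present in each group, but the root sums of MIR394A_OE lay below those of all other libraries. PRP3, at 27.49 and 36.8 FPKM in MIR394A_OE, was a large part of these sums. Of the 7 root markers, 4 had positive and 3 negative differences between MIR394A_OE and Col-0.

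The 10 enzymes were expressed at levels that spanned more than 2 orders of magnitude. In Col-0, DWF1, the reductase that makes campesterol, stood highest at 246 ± 15.2 FPKM (SD, n = 3). DWF5, the sterol reductase before it, followed at 51.8 ± 1.83 FPKM, and CPD at 36.9 ± 7.76 FPKM. DWF7, a sterol desaturase, had 17.8 ± 3.25 FPKM and DET2 10.4 ± 1.51 FPKM. These 5 genes were separated from each other in every Col-0 library.

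The remaining P450 genes lay below 8 FPKM in Col-0. DWF4 averaged 5.79 ± 0.203 FPKM, ROT3 5.45 ± 1.90 FPKM, CYP90D1 3.14 ± 1.17 FPKM and CYP85A2 2.44 ± 0.585 FPKM. Each of these overlapped its neighbour in the order across the Col-0 libraries. CYP85A1 was lowest at 0.65 ± 0.513 FPKM, about 6.93 to 27.9 reads per library. The order was partly different in bin2-1, where CYP85A2 held place 6 of 10, against place 9 in Col-0. It held place 8 in MIR394A_OE.

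**Figure D1:**
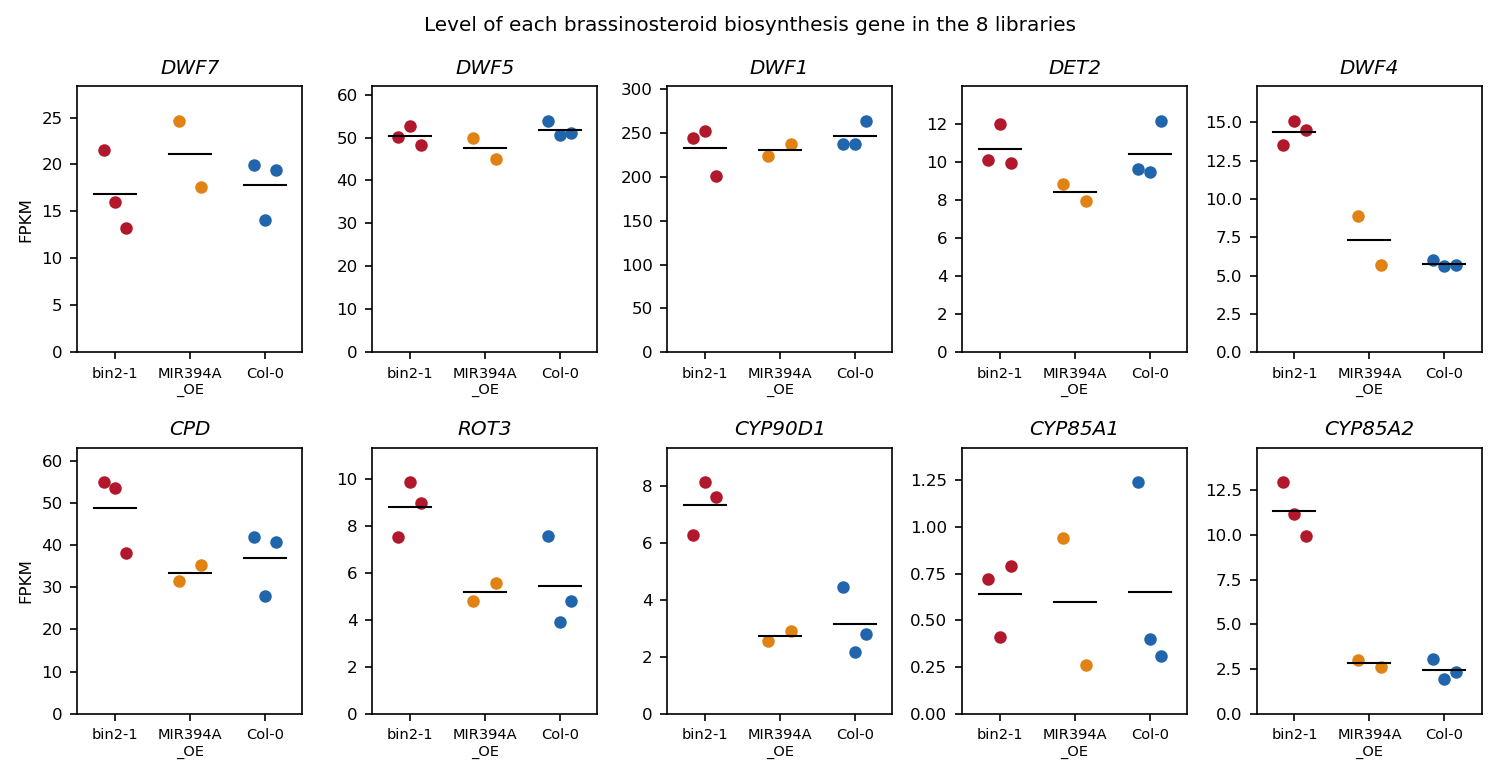
FPKM of the 10 brassinosteroid biosynthesis genes, in a panel per gene with its own linear axis from 0, with a point per library and a bar at each group mean, for bin2-1 (n = 3), MIR394A_OE (n = 2) and Col-0 (n = 3). DWF4, CYP90D1 and CYP85A2 lie higher in every bin2-1 library than in any Col-0 library, and DWF1, DWF5, DET2 and DWF7 overlap between these groups.

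The first comparison, bin2-1 with Col-0, asks what happens to the enzyme genes when the kinase stays active. The P450 genes CYP85A2, DWF4 and CYP90D1 lay higher in every bin2-1 library than in any Col-0 library, while the 4 genes of the sterol and reductase steps differed little. CYP85A2 alone passed the test over all genes. Group means of CYP85A2 differed by 4.65 times, those of DWF4 by 2.48 times and those of CYP90D1 by 2.34 times.

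CYP85A2 oxidises castasterone and its precursors and is the enzyme known to make brassinolide. It had 12.96, 11.16 and 9.95 FPKM in bin2-1, against 3.08, 1.93 and 2.32 FPKM in Col-0. The groups were far apart, and the lowest bin2-1 library was more than 3 times the highest Col-0 library. CYP85A2 rose by 1.85 ± 0.19 (SE) on the log2(FPKM + 1) scale (95% interval 1.43 to 2.27, limma, adjusted p = 0.0236). It had the smallest p of the 18798 genes tested and ranked 9 among positive fold changes. In whole seedlings, more cells that express a gene and more RNA per cell cannot be told apart.

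The size of the CYP85A2 change was 1.74 to 2.19 on the log2 scale over 19 alternatives, each with an unadjusted p under 0.05 in limma, but its call over all genes was often lost. Without Col-0 replicate 1 the adjusted p was 0.0684, without Col-0 replicate 2 it was 0.167, without MIR394A_OE replicate 1 it was 0.0538 and without MIR394A_OE replicate 2 it was 0.0535 (limma). Without bin2-1 replicate 1 it was 0.142 and without bin2-1 replicate 2 it was 0.213. In each of these 6 fits 0 genes of the whole table were called, with 1786 to 4227 at an unadjusted p under 0.05. The adjusted p was also 0.0510 with the 2 groups alone and 0.0737 without Col-0 replicate 1 and MIR394A_OE replicate 1 together.

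DWF4 had 13.51, 15.11 and 14.5 FPKM in bin2-1, against 6.02, 5.65 and 5.69 FPKM in Col-0. Both groups were tight, with coefficients of variation of 5.62% in bin2-1 and 3.51% in Col-0. The difference was 1.18 ± 0.18 (SE) on the log2(FPKM + 1) scale with a 95% interval of 0.77 to 1.59, and it narrowly missed the threshold over all genes (limma, adjusted p = 0.0555). It passed when libraries were rescaled by the median of ratios (adjusted p = 0.0409) and without Col-0 replicate 3 (adjusted p = 0.0498, limma), and its adjusted p reached 0.321 without bin2-1 replicate 2. Library weights gave 1.80e-05, but their estimate did not converge and 10128 of 18798 genes were called with them.

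CYP90D1 and ROT3 are related P450 enzymes whose known substrates overlap. CYP90D1 had 6.3, 8.14 and 7.61 FPKM in bin2-1, against 4.44, 2.17 and 2.81 FPKM in Col-0. All bin2-1 libraries were above all Col-0 libraries, with a difference of 1.04 ± 0.22 (SE) on the log2(FPKM + 1) scale that did not pass (limma, adjusted p = 0.0880). ROT3 had 7.55, 9.88 and 8.98 FPKM in bin2-1, against 7.58, 3.93 and 4.83 FPKM in Col-0. Here Col-0 replicate 1 reached into the bin2-1 range, and the difference of 0.64 ± 0.22 (SE) did not pass (limma, adjusted p = 0.202).

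CPD, the P450 that acts next to DWF4, had 54.96, 53.6 and 38.08 FPKM in bin2-1, against 41.89, 27.95 and 40.83 FPKM in Col-0. Its groups overlapped and the log2 difference of 0.40 ± 0.21 (SE) did not pass (limma, adjusted p = 0.336). CYP85A1, the close relative of CYP85A2, had 0.72, 0.41 and 0.79 FPKM in bin2-1, against 1.24, 0.4 and 0.31 FPKM in Col-0. It averaged 0.634 FPKM over all libraries, below the minimum of 1 FPKM, and was not tested. Without that minimum its log2 difference was 0.03.

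The enzymes of campesterol synthesis and the reductase step gave differences between -0.09 and 0.03. DWF1 had 244.89, 252.51 and 200.52 FPKM in bin2-1, against 237.58, 237.78 and 264.06 FPKM in Col-0, a log2 difference of -0.09 with an interval of -0.42 to 0.24. DWF5 had 50.23, 52.64 and 48.3 FPKM in bin2-1, against 53.91, 50.49 and 51.06 FPKM in Col-0, with an interval of -0.33 to 0.25. Both groups overlapped for both genes.

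DWF7 had 21.55, 15.96 and 13.2 FPKM in bin2-1, against 19.99, 14.09 and 19.41 FPKM in Col-0, with an interval of -0.59 to 0.42. DET2 had 10.09, 11.98 and 9.94 FPKM in bin2-1, against 9.62, 9.49 and 12.17 FPKM in Col-0, with an interval of -0.34 to 0.41. The intervals of these 4 genes exclude a change of the size seen in CYP85A2 or DWF4.

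Of the 9 members tested, 1 was called higher and 0 lower, against 0.0532% of all genes called higher and 0.0585% called lower. Unadjusted p-values under 0.05 were found for 4 members upward (11.1% of all genes) and 0 downward (6.67%). Libraries did not overlap for 3 members with bin2-1 higher (20.2% of all genes) and 0 with bin2-1 lower (8.47%). The median log2 difference was 1.04 over the 5 P450 genes tested and -0.06 over the other 4 members, beside 0.10 over all genes.

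**Figure D2:**
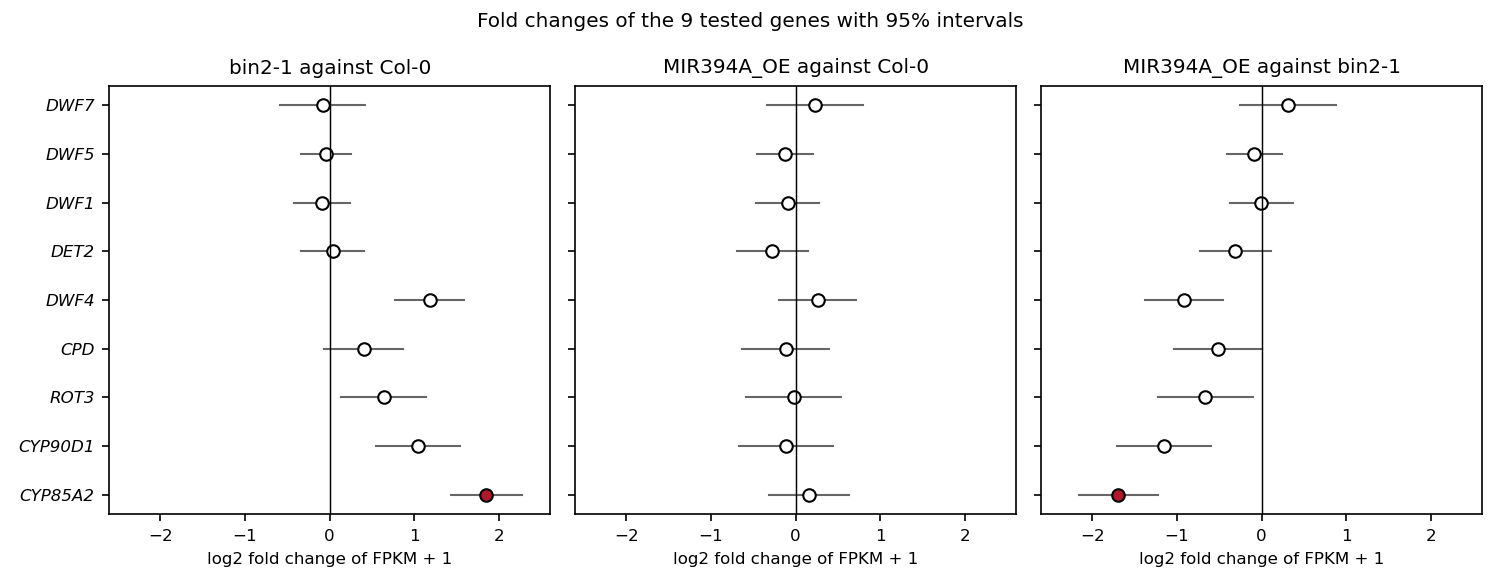
Log2 fold changes of the 9 enzyme genes tested, on the log2(FPKM + 1) scale with 95% intervals from limma, for bin2-1 against Col-0, MIR394A_OE against Col-0 and MIR394A_OE against bin2-1, with called genes filled in red. The change of CYP85A2 in bin2-1 (1.85) is the highest of the first comparison, and the intervals of the second comparison all include 0.

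The second comparison, MIR394A_OE with Col-0, asks whether the microRNA line alters the same genes. The log2 differences of the enzyme genes from Col-0 lay between -0.28 and 0.26. Of 9 members tested, 0 were called in limma, and 0 had an unadjusted p under 0.05. Of all genes, 0% were called higher and 0.0106% lower, with unadjusted shares of 3.15% higher and 1.63% lower. The Col-0 libraries are the same as in the first comparison, so the results of the pair are not independent. With 2 libraries, the intervals were wider than for bin2-1. They reached down to -0.69 for DET2 and up to 0.72 for DWF4 and 0.79 for DWF7, so changes of these sizes were not excluded. In simulated data, 31.1% of changes of size 1 on the log2 scale were recovered in this comparison. The genes changed there averaged 5 FPKM or more and were many more than those called in the data. Recovery in the data may therefore be lower. The lack of calls therefore does not show a lack of change.

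CYP85A2 had 3.0 and 2.63 FPKM in MIR394A_OE, against 3.08, 1.93 and 2.32 FPKM in Col-0. The MIR394A_OE libraries lay inside the Col-0 range, and the interval of the log2 difference, -0.31 to 0.63, excludes the change measured in bin2-1. DWF4 had 8.92 and 5.66 FPKM in MIR394A_OE, against 6.02, 5.65 and 5.69 FPKM in Col-0. Replicate 1 was above all Col-0 libraries and replicate 2 among them. The log2 difference was 0.26 ± 0.20 (SE, limma, adjusted p = 0.873). It was -0.03 without MIR394A_OE replicate 1 and 0.55 without MIR394A_OE replicate 2.

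The MIR394A_OE libraries also differed from each other outside the enzyme genes, with scores of -54.2 and -2.86 on the first principal component. Replicate 1 was the higher library for 48.9% of the genes tested and 6 of 10 members. Replicate 2 was the higher for 50.9% and 4 of 10. BRI1, HMG1 and TOC1, named after their values were seen, were lower in replicate 1. The receptor gene BRI1 had 27.02 FPKM in replicate 1 and 64.23 FPKM in replicate 2, and HMG1, of sterol synthesis, 65.34 and 161.56 FPKM. The clock gene TOC1 had 30.5 FPKM in replicate 1 and 66.54 FPKM in replicate 2. The clock genes CCA1, at 25.62 and 21.92 FPKM, and LHY, at 39.66 and 40.45 FPKM, differed less. The part of this difference between libraries in the DWF4 values was not tested.

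The other P450 genes overlapped between the groups. CPD had 31.62 and 35.23 FPKM in MIR394A_OE, against 27.95 to 41.89 FPKM in Col-0. ROT3 had 4.79 and 5.56 FPKM in MIR394A_OE, against 3.93 to 7.58 FPKM in Col-0, and CYP90D1 2.56 and 2.92 FPKM, against 2.17 to 4.44 FPKM. CYP85A1 had 0.94 and 0.26 FPKM in MIR394A_OE and remained untested.

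For DET2 and DWF5, both MIR394A_OE libraries lay below all Col-0 libraries, 2 of 9 members beside 6.17% of all genes. For 0 members did both lie above all Col-0 libraries, beside 10.9%. DET2 had 8.85 and 7.95 FPKM in MIR394A_OE, against 9.62, 9.49 and 12.17 FPKM in Col-0, a log2 difference of -0.28 ± 0.19 (SE, limma, adjusted p = 0.873). DWF5 had 49.91 and 45.02 FPKM in MIR394A_OE, against 53.91, 50.49 and 51.06 FPKM in Col-0, a log2 difference of -0.13. Neither passed the test. DWF1 had 223.59 and 237.89 FPKM in MIR394A_OE and DWF7 24.66 and 17.61 FPKM, with log2 differences from Col-0 of -0.09 and 0.23.

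The third comparison set MIR394A_OE against bin2-1. CYP85A2, at 3.0 and 2.63 FPKM in MIR394A_OE against 9.95 to 12.96 FPKM in bin2-1, differed by -1.69 ± 0.21 (SE) on the log2(FPKM + 1) scale and was the only member called (limma, adjusted p = 0.0406). This was 1 of 9 members, beside 0.0319% of all genes called lower, and 0 members were called higher, beside 0.0213%. The call was lost without Col-0 replicate 2 (adjusted p = 0.0714), MIR394A_OE replicate 1 (0.372), bin2-1 replicate 1 (0.178) or bin2-1 replicate 2 (0.282), with the log2 difference at -1.77 to -1.60 over all libraries left out in turn (limma). It was also lost with pseudocounts of 0.1 FPKM (0.0501) and 0.5 FPKM (0.0515), without the minimum level (0.0652), with the 2 groups alone (0.0610), with library weights (0.0839) and without Col-0 replicate 1 and MIR394A_OE replicate 1 together (0.269), and so held in 9 of 19 alternatives.

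CYP90D1 differed by -1.15 ± 0.25 (SE) and DWF4 by -0.92 ± 0.20 (SE) between MIR394A_OE and bin2-1, both with an adjusted p of 0.102 in limma. ROT3 differed by -0.66 ± 0.25 (adjusted p = 0.211) and CPD by -0.52 ± 0.23 (adjusted p = 0.263). For 6 of 9 members every MIR394A_OE library lay below every bin2-1 library (20.9% of all genes), and 5 had an unadjusted p under 0.05 on this side (10.9% of all genes), against 0 on the other (8.08%). These 5 were the P450 genes tested, with a median log2 difference of -0.92, beside -0.06 over all genes. DET2, at -0.31, was the other separated member.

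The level of the 6 P450 genes also differed between libraries of Col-0. Replicate 1 was the highest Col-0 library for 6 of 6 P450 genes and for 8 of 10 members, while it was the highest for 46.0% of the genes tested. Replicate 2 was the highest for 0 of 10 members, beside 25.1% of genes. On the first principal component the Col-0 libraries were spread out, with scores of -35.4 for replicate 1, -15.0 for replicate 2 and 2.69 for replicate 3. Without replicate 1, the log2 difference of ROT3 in bin2-1 was 0.86, against 0.64 with all libraries, and that of CPD 0.57, against 0.40. These were the highest values with each library left out in turn. The lowest were 0.46 for ROT3 and 0.22 for CPD.

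Gene pairs with related functions were compared within libraries, since a ratio of 2 genes does not depend on the scaling of a library. These pairs were chosen after their values were seen. The ratio of ROT3 to CYP90D1 was 1.20, 1.21 and 1.18 in bin2-1 and 1.71, 1.81 and 1.72 in Col-0. Values within each group lay much closer together than between groups, and closer than the counting error of a library (SE 0.119 to 0.135 in bin2-1 and 0.211 to 0.340 in Col-0). The exact permutation test gave p = 0.1 (two-sided), the smallest that 3 against 3 libraries allow. MIR394A_OE had ratios of 1.87 and 1.90 (counting SE 0.297 and 0.288), above all Col-0 libraries but by less than this counting error. The exact permutation test gave p = 0.2 (two-sided), the smallest that 2 against 3 allow.

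CYP85A2 made up 94.7%, 96.5% and 92.6% of the summed FPKM of CYP85A1 and CYP85A2 in bin2-1, against 71.3%, 82.8% and 88.2% in Col-0. The bin2-1 libraries were all above those of Col-0 (exact permutation test, two-sided p = 0.1, the smallest possible). In MIR394A_OE the share was 76.1% and 91.0%, within and just above the Col-0 range (exact permutation test, two-sided p = 0.8, smallest possible 0.2). CYP85A1 rests on 5.77 to 27.9 reads per library, which limits the precision of the share. The coding sequences of the pair are identical at 81.9% of 1398 aligned positions, but their transcripts share 0 windows of 50 bases with each other or any other gene.

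**Figure D3:**
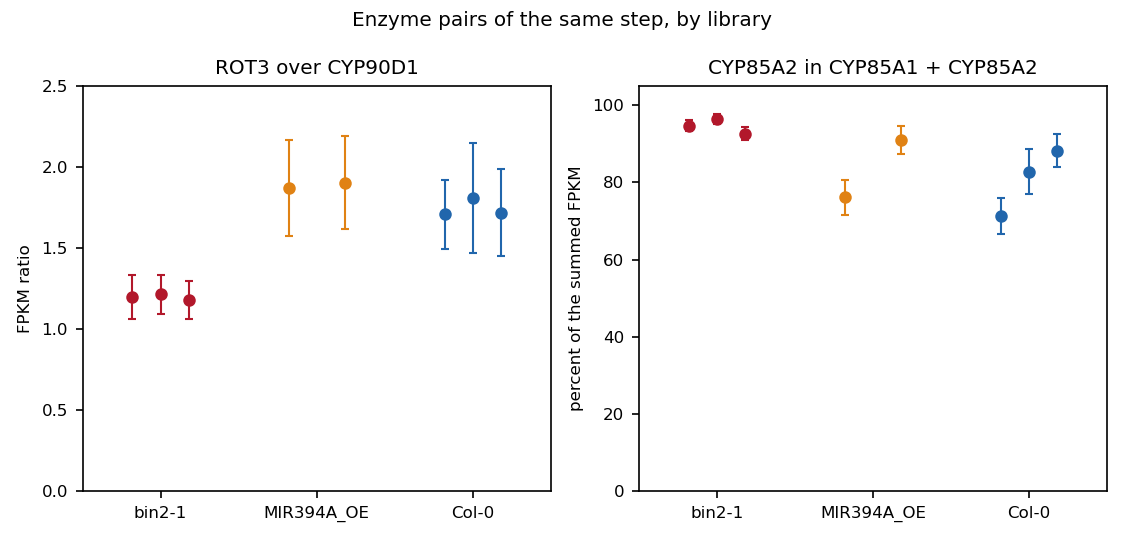
Ratio of ROT3 to CYP90D1 FPKM (left) and CYP85A2 as a percentage of the summed FPKM of CYP85A1 and CYP85A2 (right), with a point per library and counting error bars of 1 SE, for bin2-1, MIR394A_OE and Col-0. The ratio is 1.18 to 1.21 in bin2-1 and 1.71 to 1.81 in Col-0.

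Some members overlap a neighbour in the TAIR10.1 annotation, and it is not given in the sources used here whether counting used strand. CPD shares 20 exonic bases with MOS7 on the opposite strand, DET2 35 with CAC3 on the opposite strand and DWF1 20 with AT3G19810 on the same strand. ROT3 shares 83 exonic bases with AT4G36370 on the opposite strand, a gene not found among those matched here and so without values. ROT3 was also the only member to share windows of 50 bases with another gene, 34 of 2286, all with AT4G36370. The effect on the ROT3 values was not tested. DWF4, CYP90D1, CYP85A1, CYP85A2, DWF5 and DWF7 overlap no annotated gene.

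BZR1 and BES1 are known to bind the element CGTGTG or CGTGCG, called BRRE, and the E-box CANNTG. The 250 bases before the annotated start of each member were searched for both on both strands. The start was the outermost annotated end of the gene. For DWF4, ROT3, CYP90D1 and CYP85A1 the annotation holds more transcripts than the expression data. Their windows may therefore not lie next to the start of the transcript measured. The windows of CYP85A2 and DWF4 are shown because these genes differed most between bin2-1 and Col-0 by p. They were read from the RefSeq TAIR10.1 assembly at chr3:11810476-11810725 (plus strand) for CYP85A2 and chr3:18817406-18817655 (minus strand) for DWF4, and capitals mark CANNTG.
CYP85A2: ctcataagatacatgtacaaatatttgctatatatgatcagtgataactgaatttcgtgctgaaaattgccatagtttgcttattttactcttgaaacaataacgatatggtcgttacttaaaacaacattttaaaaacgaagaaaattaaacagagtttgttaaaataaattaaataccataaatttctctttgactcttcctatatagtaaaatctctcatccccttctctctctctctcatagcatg
DWF4: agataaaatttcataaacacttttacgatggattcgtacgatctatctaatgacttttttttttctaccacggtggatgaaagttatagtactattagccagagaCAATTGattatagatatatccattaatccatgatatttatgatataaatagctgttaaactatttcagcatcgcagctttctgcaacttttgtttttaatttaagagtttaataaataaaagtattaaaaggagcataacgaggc

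CYP85A2 held neither element in this window, and DWF4 held 1 E-box. BRRE was found in 0 of 10 members, beside 6.71% of 27443 promoters of the same length. CANNTG was found in 9 of 10 members, beside 55.3% of promoters. CACGTG, a form of CANNTG, was found in DWF5 only, beside 6.49% of promoters. The table names transcripts by RefSeq accessions, mostly of another version than in this annotation, so start sites may differ from those used by the authors.

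In a window of 1000 bases, chosen after the shorter one was read, BRRE was found in 4 of 10 members, beside 21.1% of promoters. These were DWF4, CYP90D1, ROT3 and DWF7, with the element beginning 458, 801, 413 and 422 bases before the start. The 60 bases around each are shown with BRRE in capitals, as read on the strand of the gene. They lie at chr3:18817831-18817890 (minus strand) for DWF4, chr3:4501689-4501748 (minus strand) for CYP90D1, chr4:17192888-17192947 (minus strand) for ROT3 and chr3:546290-546349 (plus strand) for DWF7. CGCACG is CGTGCG on the other strand, and the DWF7 element overlaps a CACGTG.
DWF4: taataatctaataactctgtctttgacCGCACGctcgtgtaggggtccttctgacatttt
CYP90D1: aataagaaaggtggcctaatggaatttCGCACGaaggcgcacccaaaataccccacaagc
ROT3: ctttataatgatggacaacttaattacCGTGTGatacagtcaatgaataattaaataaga
DWF7: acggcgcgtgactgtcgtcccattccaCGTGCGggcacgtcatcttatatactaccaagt
Of these 4 genes, DWF4 and CYP90D1 had non-overlapping bin2-1 and Col-0 libraries, while those of ROT3 and DWF7 overlapped, with log2 differences of 0.64 and -0.08. CYP85A2, the member called, was not among them.

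Other genes whose profile over the 8 libraries lay nearest to a member were found by the root mean square difference of centred log2(FPKM + 1) values, among 13822 genes that reached 5 FPKM. For DWF4 the nearest were AT3G50900 (0.14), AT5G35940 (0.20) and TCP20 (0.21), a TCP transcription factor. For CYP85A2 they were FUR1 (0.21), a nucleoside transporter, AT4G27900 (0.31) and PP2-A8 (0.32). DWF4 itself was at place 10 for CYP85A2 (0.39). FUR1 had 18.91, 21.08 and 14.9 FPKM in bin2-1, against 5.1, 4.36 and 5.0 FPKM in Col-0. It was chosen by its nearness to CYP85A2 over these same libraries, so this separation follows from the choice.

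The genes before, beside and after the enzymes were counted from lists. Upstream sterol synthesis had 17 genes tested in bin2-1 against Col-0, of which 0 were called in limma, beside 0.112% of all genes. Their median log2 difference was 0.06, beside 0.10 over all genes. An unadjusted p under 0.05 was found for 0 upward (11.1% of all genes) and 1 downward (6.67%). That gene was SQE3, a squalene epoxidase, at 16.37, 16.15 and 19.15 FPKM in bin2-1 against 27.54, 25.82 and 26.89 FPKM in Col-0. Its groups were well apart, yet the log2 difference of -0.61 ± 0.14 (SE) did not pass (limma, adjusted p = 0.0987). Of the 3 genes of the sitosterol branch, CYP710A1, which makes stigmasterol, was lowest at -0.86 ± 0.33 (SE, limma, adjusted p = 0.231).

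Among 7 genes of brassinosteroid inactivation, 0 were called in bin2-1, beside 0.112% of all genes. Differences were negative for 6 and positive for 1, and the median was -0.23, beside 0.10 over all genes. An unadjusted p under 0.05 in limma was found for 1 upward (11.1% of all genes) and 2 downward (6.67%). UGT73C6, a glucosyltransferase with a near copy in UGT73C5 that may share its reads, had 1.42, 0.93 and 1.57 FPKM in bin2-1, against 12.01, 5.02 and 4.1 FPKM in Col-0. The groups did not overlap, and the log2 difference was -1.69 ± 0.42 (SE, limma, adjusted p = 0.111). In MIR394A_OE it had 12.33 FPKM in replicate 1 and 3.88 FPKM in replicate 2, so the spread within a group was wide.

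Among 21 signalling genes tested in bin2-1, 0 were called, beside 0.112% of all genes. Differences were positive for 15, and the median of 0.11 was near the 0.10 of all genes. An unadjusted p under 0.05 in limma was found for 2 upward (11.1% of all genes) and 1 downward (6.67%). BSK3, a kinase that acts between the receptor and BIN2, had 44.98, 45.18 and 40.51 FPKM in bin2-1, against 30.19, 30.01 and 31.74 FPKM in Col-0. The groups were separated, with a log2 difference of 0.49 ± 0.13 (SE) that did not pass (limma, adjusted p = 0.125). Of 3 regulators of the enzyme genes tested, BEE1, a helix-loop-helix factor, had the smallest p in bin2-1, with a log2 difference of 0.97 ± 0.44 (SE, limma, adjusted p = 0.289). The only relative of the enzymes that was tested, AT5G16010, differed by 0.29, and the transporter gene ABCB1 by 0.27.

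In MIR394A_OE against Col-0, 0 genes were called in the lists of sterol synthesis (median log2 difference 0.03), sitosterol branch (0.04), inactivation (-0.07), signalling (-0.11) and regulators (0.52). Over all genes the median was 0.04 and 0.0106% were called. The smallest p in these lists belonged to SMO1-1 (log2 difference 0.38), CYP710A1 (-0.41), SOB7 (0.28), BSL2 (-0.45) and BEE3 (0.52), with adjusted p-values of 0.873 to 0.874 in limma.

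ABCB19, a transporter known for auxin and more recently for brassinosteroid export, fell: it had 9.01 and 5.4 FPKM in MIR394A_OE, against 43.48, 37.73 and 31.29 FPKM in Col-0. The groups were far apart, with a log2 difference of -2.25 ± 0.22 (SE, limma, adjusted p = 0.0195). In bin2-1 it had 35.5, 35.03 and 32.6 FPKM, within the Col-0 range. Its call in MIR394A_OE was lost without Col-0 replicate 1 (adjusted p = 0.102), 2 (0.156) or 3 (0.0541), MIR394A_OE replicate 2 (0.0901) or bin2-1 replicate 1 (0.0623), 2 (0.0801) or 3 (0.0592) in limma. The log2 difference lay between -2.58 and -1.93 with each library left out in turn, and with the 2 groups alone the adjusted p was 0.228.

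**Figure D4:**
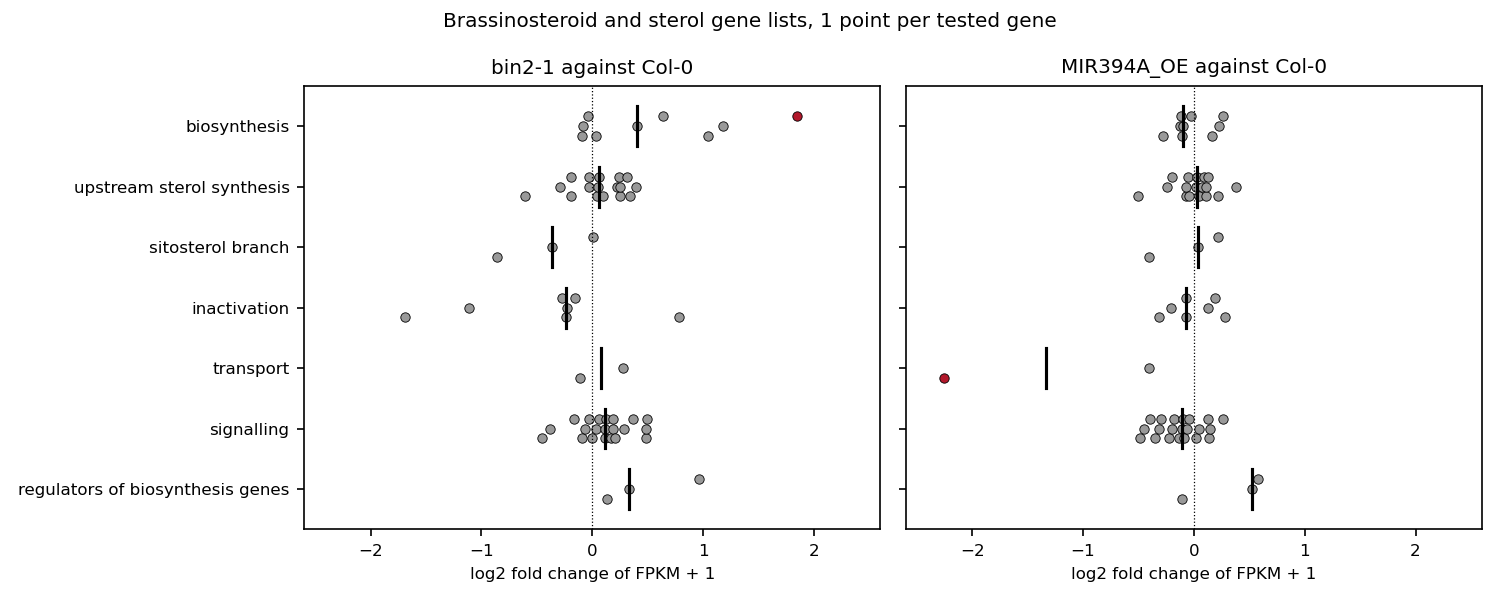
Log2 fold changes on the log2(FPKM + 1) scale of each gene tested in 7 lists, with a bar at the median of a list and genes that passed the test in red, for bin2-1 against Col-0 and MIR394A_OE against Col-0. CYP85A2 (1.85) in bin2-1 and ABCB19 (-2.25) in MIR394A_OE are the genes in red.

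Of the markers of shoot, root, seed and clock, 0 were called in either comparison with Col-0 in limma. LHCB2.1, a light-harvesting gene of green tissue, had 511.01, 426.98 and 401.07 FPKM in bin2-1, against 915.4, 626.95 and 776.35 FPKM in Col-0 (log2 difference -0.78 ± 0.23 SE, limma, adjusted p = 0.150). Of 5 shoot markers, 1 had an unadjusted p under 0.05 downward in bin2-1 and 0 upward, beside 6.67% and 11.1% of all genes. Of 7 root markers, 0 did so in either direction in bin2-1 and 1 downward in MIR394A_OE, PRP3 at 27.49 and 36.8 FPKM in MIR394A_OE, against 38.92 to 83.55 FPKM in Col-0, beside 1.63% of all genes downward. Summed seed markers (6 genes) covered 4.35 to 6.41 FPKM in bin2-1, 7.63 to 11.16 FPKM in MIR394A_OE and 1.37 to 18.94 FPKM in Col-0. Of 10 clock genes, 1 had an unadjusted p under 0.05 upward in bin2-1 (11.1% of all genes), ELF3 (log2 difference 0.50). In MIR394A_OE, 2 did so upward (3.15% of all genes), CCA1 (0.71) and LHY (0.60), and 0 downward (1.63%). For these 2 clock genes both MIR394A_OE libraries lay above all Col-0 libraries, beside 10.9% of all genes. Over the 10 clock genes, 5 differences in MIR394A_OE were positive and 5 negative. The part of these markers in the enzyme values was not tested.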

How the data were processed

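The authors deposited 1 table of FPKM values, per the file headers, with a column for each of the 8 libraries. The submitters' processing notes name Bowtie2 and HISAT with no role. Not given in the sources used here were versions, genome build, FPKM program and strand use. Of 22951 genes, 22798 matched TAIR10.1 by gene number; of 30742 transcript accessions, 8003 had the version of that annotation. FPKM are not counts, so log2(FPKM + 1) was tested with limma 3.58.1 in R 4.3.3 (1 mean per group over all 8 libraries, eBayes with trend and robust). The 18798 genes averaging 1 FPKM or more were kept, with 9 of the 10 enzymes; p-values were two-sided and adjusted by Benjamini-Hochberg over all genes, with a threshold of 0.05. The script was tested on simulated data. Single ratios were tested by exact permutation.

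Depth was read from FPKM steps over 1646 genes of 500 to 1800 nt, where 87.6% to 92.3% of low values came out whole within 0.1 read. Sequences came from RefSeq TAIR10.1; no protein sequences were used here. The enzymes and lists were chosen with earlier results of these data known. Genes named from other lists were called genes or, where none was called, the gene with the smallest p in a comparison with Col-0, and the 3 genes with profiles nearest to DWF4 and to CYP85A2. LCR, BRI1, HMG1, TOC1, CCA1, neighbours and gene pairs were added after values were seen.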

Additional observations from a re-analysis of the deposited data

How the results depend on the processing

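In bin2-1 against Col-0, 1 enzyme gene was called. The number was 2 after rescaling by the median of ratios, 0 with the 2 groups alone, 6 with library weights, 0 without Col-0 replicate 1 and MIR394A_OE replicate 1 together, and 0 to 2 with each library left out. The estimate of the library weights did not converge, and 10128 genes of the whole table were called with them. The whole table had 21 calls in the main fit, 112 after rescaling and 0 with the 2 groups alone. It had 0 to 180 calls with a Col-0 or bin2-1 library left out, so the enzyme counts moved with those of all genes. In MIR394A_OE against bin2-1, the whole table had 10 calls. It had 6 with either pseudocount, 3 without the minimum, 0 with the 2 groups alone and 4 with library weights. With a Col-0 or bin2-1 library left out it had 1 to 79. Without an MIR394A_OE library that group has only 1 left, and the whole-table count is not given for those fits. The enzyme range below includes them. Among the enzyme genes, 1 was called in the main fit. The number was 0 with pseudocounts of 0.1 and 0.5 FPKM, without the minimum, with the 2 groups alone, with library weights and without those 2 libraries, and 0 to 2 with each library left out. In MIR394A_OE against Col-0 it was 0 in all 19 alternatives. The BRRE count was 0 of 10 members in 250 bases and 4 in 1000 bases.

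The deviations of same-numbered libraries from their group means correlated at 0.083, -0.202 and -0.111 between bin2-1 and Col-0, at 0.360 and 0.270 between MIR394A_OE and Col-0, and at 0.322 and 0.030 between MIR394A_OE and bin2-1. With only 2 pairs for MIR394A_OE, no label on what a number shares and no such pattern in bin2-1, the numbers were not taken to pair the samples. With the replicate number as a block, the number of enzyme genes called was 1 in bin2-1 against Col-0, 0 in MIR394A_OE against Col-0 and 1 in MIR394A_OE against bin2-1, and the genes called in the whole table against Col-0 numbered 32 in bin2-1, beside 21 without the block.

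Of 510 log2 differences of enzyme genes under alternatives, 454 kept direction and side of the threshold, 18 lost a call, 8 gained one and 30 changed sign, all of the last in differences that were not called. In bin2-1 against Col-0, DET2 became -0.070 after rescaling and -0.057 with quantile scaling, and without both libraries DET2 was -0.015 and DWF7 0.0023. Library weights gave 0.13 for DWF7, 0.052 for DWF1 and 0.040 for DWF5. In MIR394A_OE against Col-0, library weights gave 0.27 for ROT3, 0.18 for CYP90D1 and 0.19 for CPD, and without both libraries the values were 0.29, 0.17 and 0.058, with DWF4 at -0.0022. In MIR394A_OE against bin2-1, DWF1 was 0.048 after rescaling and 0.039 without both. With each library left out, sign changes occurred in bin2-1 against Col-0 for DET2 (-0.045 to 0.14), DWF7 (-0.26 to 0.070) and DWF1 (-0.15 to 0.015). They also occurred in MIR394A_OE against Col-0 for ROT3 (-0.20 to 0.20), CYP90D1 (-0.29 to 0.10), DWF7 (-0.0014 to 0.46) and DWF4 (-0.027 to 0.55), and against bin2-1 for DWF1 (-0.11 to 0.057). CPD kept its sign in MIR394A_OE against Col-0 (-0.30 to -0.018). The cause of these changes was not tested. CYP85A1 rests on few reads, and without the minimum its log2 difference in bin2-1 was 0.027 with an SE of 0.24, so small differences in it were not detectable at this depth. CYP90D1 averaged under 5 FPKM and has no value with that minimum.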
